A study of Mus musculus with 2744 samples.

Results

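The 10 genes described here encode subunits of the BAF complex, the mammalian SWI/SNF chromatin remodeller: Smarca4, Smarcd1, Smarcd3, Actl6a, Actl6b, Phf10, Dpf1, Dpf3, Ss18 and Ss18l1. They were chosen by symbol and by role from the 23968 genes of the tables, with earlier results of these data known, and all 10 were found. Actl6a, Phf10 and Ss18 are subunits of the complex in dividing progenitors, Actl6b, Dpf1, Dpf3 and Ss18l1 take their places in neurons, and Smarca4, Smarcd1 and Smarcd3 were added as subunits outside that exchange. The cells were mouse embryonic stem cells that were turned into motor neurons in culture as embryoid bodies, dissociated with papain and sorted 1 per well. Their polyadenylated RNA was sequenced with a modified CEL-seq protocol, which reads the 3′ end of transcripts. The 2 experiments, main and pilot, are named as biological replicates by the series.

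The groups were Day 6 eGFP++ cells, Day 6 eGFP+ cells (83 kept cells, all of a single main plate), and cells without an eGFP label on Day 2, Day 3, Day 4, Day 5 and Day 6. Of 2448 kept cells, the pilot experiment gave 39 eGFP++ cells and 75, 69, 57, 75 and 71 cells of Days 2, 3, 4, 5 and 6, and its groups were the smaller ones on every day. All groups came from the same type of differentiation, of which main and pilot are separate experiments. The labels give no genotype or strain, and they do not name the reporter behind the eGFP signal. Kept cells had at least 500 genes with a read, and their reads were summed per group and experiment, to 16370502 to 100972780 gene reads per sum. A level is the CPM of such a sum, its counts scaled to a common total of gene reads, so that n = 2 sums per group, and 1 for eGFP+. Values given in pairs are those of the main and then the pilot sum. A share is the percentage of kept cells with at least 1 read, given after each cell was thinned at random to 10000 gene reads unless all reads are named. Intervals of shares are exact 95% intervals and cover counting error only, not the spread between plates or cultures. The reads carry no molecular identifiers. In a sum of cells, fewer cells of a type and less RNA per cell cannot be told apart.

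BAF uses the ATPase encoded by Smarca4 or Smarca2 to slide and evict nucleosomes. When neural progenitors leave the cell cycle, BAF53a (Actl6a), BAF45a (Phf10) and SS18 are known to be replaced by BAF53b (Actl6b), BAF45b or BAF45c (Dpf1, Dpf3) and CREST (Ss18l1), which gives the neuronal form nBAF that is needed for dendrite growth. In this exchange the microRNAs miR-9* (miR-9-3p) and miR-124 are known to bind the Actl6a transcript.

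The gene lists that stand for cell types set the frame. The summed level of 14 neuron markers was 14158 to 16408 CPM in eGFP++ cells, 2176 CPM in eGFP+ cells and 5658 to 5694 CPM in Day 6 cells, against 186.7 to 257.7 CPM in Day 2 cells. The 12 markers of dividing cells summed to 469.2 to 547.03 CPM in eGFP++ cells, 2710 CPM in eGFP+ cells and 1948 to 2900 CPM on Day 6, against 4441 to 6135 CPM on Day 2. The 12 markers of neural progenitors summed to 806 to 1231 CPM in eGFP++ cells and 2325 CPM in eGFP+ cells. They were at 2213 to 2633 CPM on Day 6 and 416.7 to 421.05 CPM on Day 2. From Day 2 to Day 6 these markers thus rose, while the summed progenitor subunits Actl6a, Phf10 and Ss18 fell. Those subunits were at 278.7 to 383.9 CPM on Day 2 and 129.5 to 180.6 CPM on Day 6. Markers and subunits were both lower in eGFP++ cells than on Day 6, the subunits at 42.03 to 90.003 CPM. The 10 markers of pluripotent cells were at 9.05 to 13.99 CPM in eGFP++ cells, with 6 to 8 of them at 0, and at 3416 to 4794 CPM on Day 2. The 8 motor neuron markers summed to 1087 to 1349 CPM in eGFP++ cells, 248.8 CPM in eGFP+ cells and 264.65 to 420.2 CPM on Day 6, against 3.44 to 17.4 CPM on Day 2. Beside these, 8 glial markers summed to 111.7 to 335.85 CPM in eGFP++ cells and 115.1 to 129.5 CPM on Day 6. The Egfp transcript itself was at 9759 and 4413 CPM in eGFP++ cells, 1488 CPM in eGFP+ cells and 3804 and 2709 CPM in Day 6 cells, so the library labelled eGFP+ held less of it than the Day 6 cells without that label. The part of this mixture of cells in each result below was not tested.

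The sequences shown first are those of the exchange between Actl6a and Actl6b. Of the 10 genes, Actl6b alone was called in the main fit of reads over the days, which is given below with its limits. The first pair is the stretch from 250 bases before to 50 bases after the start of each gene in RefSeq (GRCm38.p6), which held 9 of the 10 genes. Capitals mark the E-box CANNTG, the core of basic helix-loop-helix binding, and the GC box GGGCGG, the core of Sp factor binding, searched on both strands. Actl6a has its stretch on the plus strand at chr3:32708296-32708595, within the gene at chr3:32706298-32726973 in GENCODE M21.
Actl6a: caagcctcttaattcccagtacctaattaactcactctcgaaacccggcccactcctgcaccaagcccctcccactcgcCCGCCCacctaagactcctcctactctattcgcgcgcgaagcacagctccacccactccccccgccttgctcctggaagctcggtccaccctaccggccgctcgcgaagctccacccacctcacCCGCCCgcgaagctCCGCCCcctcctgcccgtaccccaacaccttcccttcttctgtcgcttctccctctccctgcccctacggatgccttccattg
Actl6b has its stretch on the plus strand at chr5:137553296-137553595, at the start of the gene at chr5:137553517-137569582.
Actl6b: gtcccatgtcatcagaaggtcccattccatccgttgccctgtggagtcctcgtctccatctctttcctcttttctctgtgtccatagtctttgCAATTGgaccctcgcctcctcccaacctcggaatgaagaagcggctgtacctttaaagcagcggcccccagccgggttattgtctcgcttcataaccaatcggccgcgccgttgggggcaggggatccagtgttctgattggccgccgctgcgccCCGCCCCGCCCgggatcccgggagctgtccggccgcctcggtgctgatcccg
The Actl6a stretch held 3 GC boxes and 0 E-boxes, and the Actl6b stretch held 2 overlapping GC boxes and 1 E-box. Of 27025 RefSeq promoter stretches of this length, 35.91% held a GC box and 72.15% an E-box. The part sequences TTCAGCACC and GGACAGCGC of RE1, the element bound by the repressor REST, were searched likewise, were in 0.36% and 0.43% of all stretches and in none of the 9. These are matches of letters and no sites of binding.

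The second pair is a known contact of the exchange. miR-9-3p is given with its seed, bases 2 to 8, in capitals. The Actl6a 3′ untranslated region is given around the match to that seed, in capitals, at chr3:32726628-32726656 on the plus strand.
miR-9-3p: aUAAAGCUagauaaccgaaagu
Actl6a site: ctcaacgtctgtAGCTTTAgtacactcag
The match begins 38 bases after the stop codon of transcript Actl6a-201. The letters AGCTTTA were found in 2373 of 21022 genes with such a region (11.29%), and in 0 of the other 8 BAF genes searched. Ss18 was left out of this look at single BAF genes, so its region is not known here. CEL-seq of polyadenylated RNA does not measure the mature microRNA. The long noncoding RNA C130071C03Rik, which spans the Mir9-2 hairpin on the same strand, was at 0.194 and 0 CPM in eGFP++ cells and 1.81 CPM in eGFP+ cells. Its main sums of Days 2, 5 and 6 were at 0, 1.26 and 10.9 CPM and the pilot sums at 0, 0.0166 and 2.83 CPM. It was thus highest in Day 6 cells without an eGFP label and near 0 in eGFP++ cells.

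Actl6b, the neuronal actin-like subunit BAF53b, had no reads early and some late in both experiments. The eGFP++ sums were at 7.30 and 2.20 CPM, and the eGFP+ sum had 0 reads. Both sums of Day 2 and of Day 3 had 0 reads. On Days 4, 5 and 6 the main sums were at 0.105, 0.338 and 5.36 CPM and the pilot sums at 0, 0 and 1.71 CPM.
All 4 late sums of Day 6 and eGFP++ cells lay above every earlier sum. Over Days 2 to 6 the reads of Actl6b rose by 3.17 ± 0.63 per day on the log2 scale (SE, 10 sums), with an adjusted p of 0.0193 in edgeR's quasi-likelihood test. It was 1 of 10 genes called in that slope, where 4.18% of all 15971 tested genes were called. Against a floor of 3 reads in a sum, the Actl6b level of Day 6 cells was at least 132.8-fold (main) and at least 30.001-fold (pilot) higher than that of Day 2 cells. The eGFP++ level was at least 180.95-fold and at least 38.5-fold higher than that of Day 2 cells, and the main eGFP++ sum was at least 40.4-fold above the eGFP+ sum.

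The rise of Actl6b was carried by few cells. With all reads, 38 main eGFP++ cells held a read (13.4%, interval 9.68 to 17.96%), as did 2 of 39 pilot eGFP++ cells (5.13%, 0.627 to 17.3%). On Day 6 these were 20 cells (5.65%, 3.48 to 8.59%) and 3 of 71 cells (4.23%, 0.880 to 11.9%). No Day 2 cell held one, which allows a share of up to 0.831% and 4% by a limit of 3 cells. In eGFP+ cells they were 0 of 83, which allows up to 3.61% by the same limit. A single cell gave 9.31% of the Actl6b reads of the main eGFP++ sum, but 91.7% of those of the pilot eGFP++ sum. On Day 6 a single cell gave 72.1 and 48.2%.
The level in the main eGFP++ sum was therefore spread over its cells, and the other late sums leaned on 1 or 2 cells. The call in the slope was lost without the main sum of Day 2 (adjusted p = 0.078), Day 3 (0.056), Day 4 (0.0612), Day 5 (0.0551) or Day 6 (0.0974) and without the pilot sum of Day 2 (0.0524) or Day 6 (0.207), by the same edgeR test, at slopes of 2.67 to 3.43. Each direct comparison of late with early sums had an adjusted p above 0.05, at 0.16 for eGFP++ against Day 2.

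**Figure D1:**
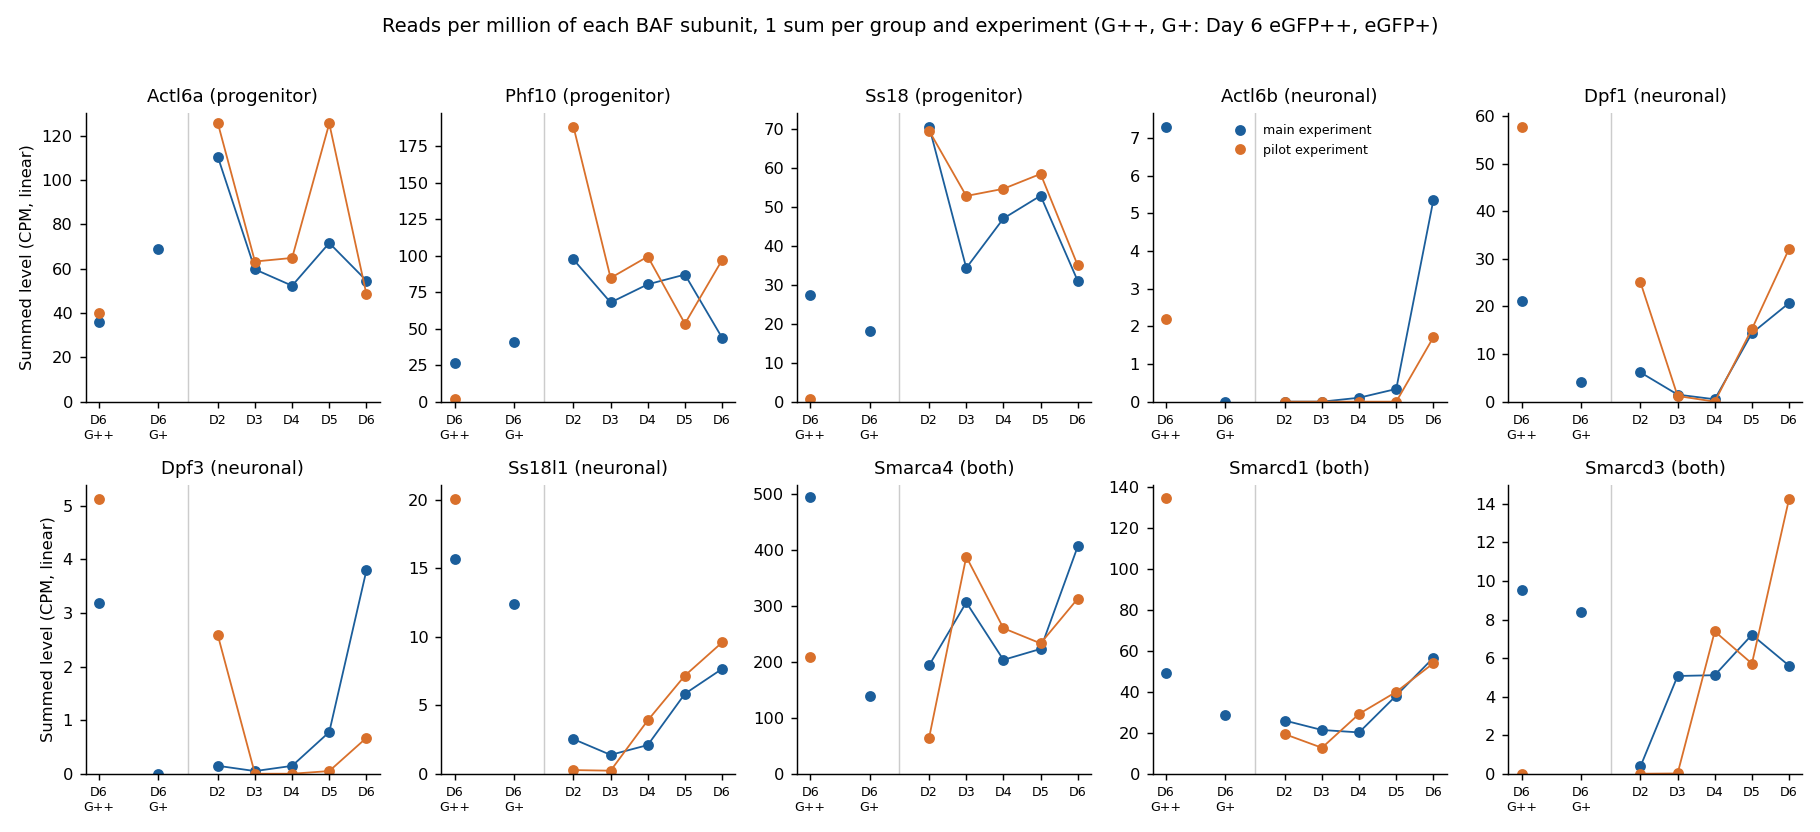
Level of each of the 10 BAF genes in every sum, in CPM on a linear axis that starts at 0 and differs between panels, with main (blue) and pilot (orange) sums as points, eGFP++ and eGFP+ cells left of Days 2 to 6, and lines joining the days. "Both" marks subunits outside the exchange. Actl6b has points above 1 CPM in eGFP++ and Day 6 cells only, while Actl6a, Phf10 and Ss18 lie lower in eGFP++ than in Day 2 cells.

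Actl6a, the progenitor actin-like subunit BAF53a that Actl6b replaces, had reads in every sum. In eGFP++ cells it was at 35.997 and 39.8 CPM, and in eGFP+ cells at 69.04 CPM. The main sums of Days 2, 3, 4, 5 and 6 were at 110.5, 59.6, 52.3, 71.5 and 54.6 CPM. The same days of the pilot gave 125.7, 63.2, 64.8, 125.4 and 48.5 CPM.
The eGFP++ sums were thus the lowest in each experiment, 3.07-fold and 3.16-fold below Day 2. The level did not run in 1 direction over the days, since the pilot Day 5 sum was as high as that of Day 2. Neither the slope of −0.22 ± 0.11 per day (edgeR adjusted p = 0.29) nor the eGFP++ difference of −1.70 ± 0.47 in reads (adjusted p = 0.0681) passed.

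The share of cells with an Actl6a read fell in eGFP++ cells. It was 17.7 and 10.3% of eGFP++ cells, against 48.2 and 35.1% of Day 2 cells. The log2 ratio of the shares was −1.49 ± 0.49, with an edgeR adjusted p of 0.0313. Main cells of Days 3, 4, 5 and 6 had shares of 32.2, 25.2, 36.8 and 20.6%, and pilot cells had 15.9, 19.3, 49.3 and 25.4%.
In Day 6 eGFP+ cells it was 16.9%, close to that of eGFP++ cells, although the eGFP+ level was 1.92-fold higher. With all reads the eGFP++ shares were 30.04 and 35.9%, against 84.8 and 46.7% on Day 2.

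Phf10, the PHD finger subunit BAF45a, likewise had its lowest level in eGFP++ cells. Its level was 26.5 and 1.53 CPM in eGFP++ cells and 41.2 CPM in eGFP+ cells. Over Days 2, 3, 4, 5 and 6 the main level was 97.5, 68.02, 80.5, 87.2 and 43.9 CPM. The pilot level was 188.6, 84.8, 99.5, 53.5 and 97.1 CPM.
Both eGFP++ sums lay below every day of their experiment. The eGFP++ level was 3.68-fold (main) and 123.5-fold (pilot) below that of Day 2, and the pilot eGFP++ sum rests on 25 reads in 5 of 39 cells. The fitted difference in reads was −3.51 ± 1.10 (edgeR adjusted p = 0.103). The share of cells with a Phf10 read fell to 10.3 and 5.13% in eGFP++ cells, against 40.3 and 17.6% in Day 2 cells (log2 ratio −1.81 ± 0.62, edgeR adjusted p = 0.0351). In eGFP+ cells the Phf10 share was 7.23%, below that of main eGFP++ cells. On Day 6 the experiments parted: the main share was 12.7%, below that of Day 2, and the pilot share 25.4%, above it. Phf10 lies at chr17:14945009-14961273 on the minus strand and overlaps 1600012H06Rik on the other strand by 14562 bases. That gene was at 32.7 and 16.4 CPM in eGFP++ cells, against 19.2 and 5.2 CPM in Day 2 cells. Since no source used here says whether the counting used the strand, reads of the 2 genes cannot be told apart. The same holds for Actl6a, which overlaps Mrpl47 by 1577 bases, for Smarcd1 with Gm17349, for Smarcd3 with Chpf2 and for Dpf1 with Gm44632.

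Ss18, the progenitor subunit that Ss18l1 replaces, was lower in both eGFP++ sums than in any day of their experiment. It was at 27.5 and 0.672 CPM in eGFP++ cells and at 18.2 CPM in eGFP+ cells. From Day 2 to Day 6 the main sums were at 70.7, 34.4, 47.1, 52.95 and 31.04 CPM. Those of the pilot were at 69.7, 52.9, 54.7, 58.6 and 35.02 CPM.
The eGFP+ sum was lower still than the main eGFP++ sum. On the days alone, both experiments had their lowest Ss18 level on Day 6 and their highest on Day 2. The slope of −0.22 ± 0.10 per day did not pass (edgeR adjusted p = 0.238). The eGFP++ level was 2.57-fold (main) and 103.7-fold (pilot) below Day 2, the second from 11 reads in 5 cells. The fitted difference in reads was −2.53 ± 1.17 (edgeR adjusted p = 0.262). The share of cells with an Ss18 read fell to 10.99 and 2.56% in eGFP++ cells, against 41.4 and 10.8% in Day 2 cells (log2 ratio −1.76 ± 0.62, edgeR adjusted p = 0.042). In eGFP+ cells the share was lower than in main eGFP++ cells, at 2.41%. Single Day 6 plates had shares of 5.62 to 16.7% in the main experiment and of 10.3 and 12.5% in the pilot.

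In all, 3 of the 3 progenitor subunits fell in share of cells between Day 2 and eGFP++ cells, at a median log2 ratio of −1.76, while 23.8% of all 8253 genes tested on shares were called in that comparison and 15.1% fell, at a median of −0.31. In reads 0 of the 10 BAF genes were called there, where 4.61% of 16080 genes were. By unadjusted p under 0.05, 2 of the 3 progenitor, 1 of the 4 neuronal and 2 of the 3 other subunits passed in reads, as did 19.8% of all genes. DESeq2 called 6 of the 10, and 25.7% of all genes.
The 3 calls on shares were lost without the main Day 2 group (adjusted p of 0.273 for Actl6a, 0.451 for Phf10 and 0.656 for Ss18), the main Day 3 group (0.0555, 0.0507 and 0.051), the main eGFP++ group (0.224, 0.298 and 0.248) or the pilot eGFP++ group (0.119, 0.108 and 0.146), by the same edgeR test and in the same order of genes. In the edgeR test they were also lost without the 3 plates picked for many failed wells or few detected genes (0.0648, 0.0955 and 0.0822). The same held without thinning (0.134, 0.219 and 0.29) and without the experiment as a term (0.11, 0.122 and 0.171). The log2 ratios stayed below 0 in each of these fits, from −2.82 to −0.79. The summed markers of dividing cells moved with these shares. They were at 469.2 to 547.03 CPM in eGFP++ sums, against 4441 to 6135 CPM in Day 2 sums. Detected genes per kept cell had medians of 2644 and 2271 in eGFP++ cells, against 4439 and 1810 in Day 2 cells. The part of either in the result was not tested.

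**Figure D2:**
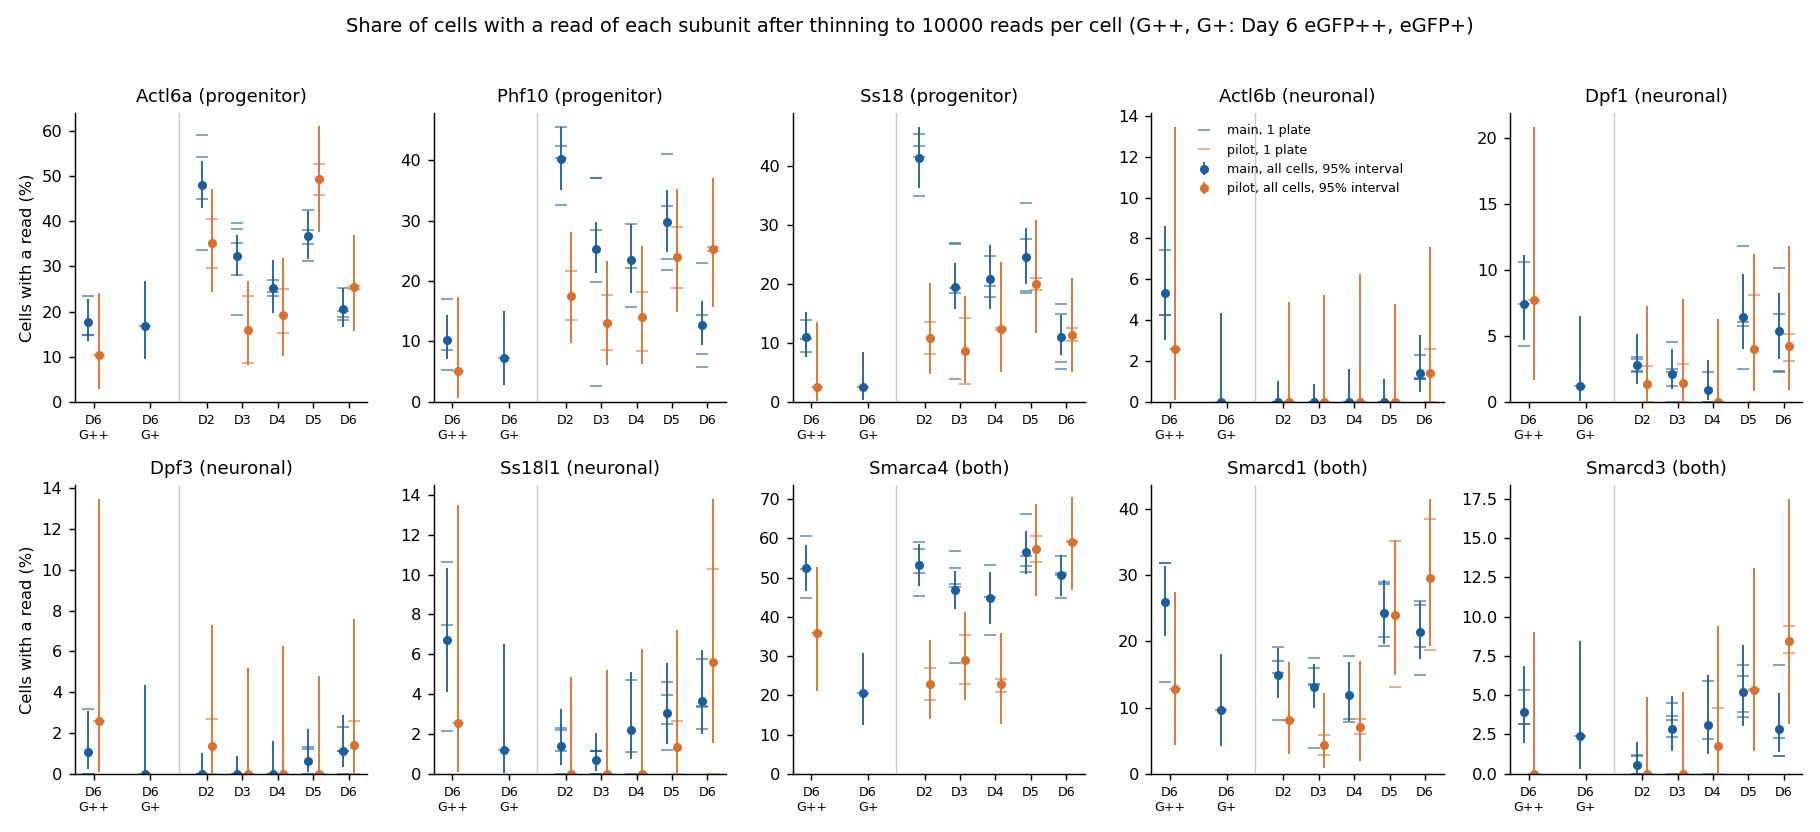
Share of kept cells with at least 1 read of each BAF gene after thinning to 10000 reads, in percent with exact 95% intervals, for eGFP++ and eGFP+ cells and Days 2 to 6 in each experiment (main blue, pilot orange), with short dashes for single plates. The shares of Actl6a, Phf10 and Ss18 in main eGFP++ cells are 17.7, 10.3 and 10.99%, against 48.2, 40.3 and 41.4% in main Day 2 cells.

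Dpf1, the neuronal PHD finger subunit BAF45b, was not silent at the start. It was at 21.1 and 57.7 CPM in eGFP++ cells and 4.03 CPM in eGFP+ cells. Day by day the main sums were at 6.15, 1.49, 0.503, 14.4 and 20.7 CPM. Pilot sums of Days 2 to 6 were at 25.1, 1.20, 0, 15.3 and 32.1 CPM.
Both experiments had their lowest level on Day 4 and a higher level on Day 5. The pilot Day 2 level came almost wholly from a single cell, which held 99.9% of its 1317 reads. The late pilot sums also leaned on few cells, with 55.03% of the eGFP++ reads and 58.6% of the Day 6 reads in 1 cell each. With all reads, 61 main eGFP++ cells held Dpf1 (21.6%), against 51 main cells of Day 2 (14.1%) and 5 of Day 4 (2.2%). The slope was 0.31 ± 0.40 per day (edgeR adjusted p = 0.745) and the eGFP++ difference from Day 2 in reads had an adjusted p of 0.648. The log2 ratio of shares between eGFP++ and Day 2 cells was 1.63 ± 0.81 (adjusted p = 0.157).

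Dpf3, the neuronal PHD finger subunit BAF45c, was near the limit of detection. It was at 3.19 and 5.13 CPM in eGFP++ cells, with 0 reads in eGFP+ cells. Main levels on Days 2, 3, 4, 5 and 6 were 0.148, 0.0495, 0.147, 0.778 and 3.80 CPM. Pilot levels were 2.59, 0, 0, 0.0497 and 0.670 CPM.
The main experiment had its highest levels on Day 6 and in eGFP++ cells, with Day 6 at 25.6-fold the Day 2 level, while the pilot Day 6 sum was at 0.259 times its Day 2 sum. The pilot sums of Day 2 and of eGFP++ cells each held all their Dpf3 reads in 1 cell. With all reads, 12 main eGFP++ cells held Dpf3 (4.24%) and 10 main Day 6 cells (2.82%), against 3 on Day 2 (0.831%). The slope of 0.20 ± 0.79 per day did not pass (edgeR adjusted p = 0.93).

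Ss18l1, which encodes the calcium-responsive coactivator CREST, was present at a low level from the first day. It was at 15.7 and 20.1 CPM in eGFP++ cells and at 12.4 CPM in eGFP+ cells, where 1 cell held 99.5% of the reads. The days from 2 to 6 gave 2.53, 1.38, 2.095, 5.84 and 7.66 CPM in main sums. They gave 0.266, 0.222, 3.90, 7.17 and 9.59 CPM in pilot sums.
From Day 3 on, each later day was higher in both experiments, and the eGFP++ sums were the highest of all. In the pilot, though, the sums of Day 3 and Day 4 each came from 1 cell, and 3 cells held 99.4% of the eGFP++ reads. The eGFP++ level was 6.197-fold (main) and 75.4-fold (pilot) that of Day 2, where the pilot sum held 14 reads. With all reads, 50 main eGFP++ cells held Ss18l1 (17.7%), against 33 on Day 2 (9.14%). Neither the slope of 0.83 ± 0.38 per day (edgeR adjusted p = 0.25) nor the eGFP++ difference from Day 2 of 3.91 ± 1.90 (adjusted p = 0.282) passed. In reads, 1 of the 4 neuronal subunits was called in the slope, at a list median of 0.57 per day, against 0.016 over all genes. On shares of cells, none of these 4 genes had enough cells for the slope, and Dpf1 alone had enough for eGFP++ against Day 2, where it did not pass.

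The balance between the 2 sets was taken as the share of neuronal subunits in the summed CPM of all 7 subunits. It was 34.4 and 66.96% in eGFP++ cells, and 11.3% in eGFP+ cells. For Days 2, 3, 4, 5 and 6 the main share was 3.07, 1.77, 1.56, 9.16 and 22.5%. The pilot share was 6.78, 0.701, 1.75, 8.65 and 19.6%.
In each experiment the share was lowest on Day 3 or 4, higher on Day 5 and again on Day 6, and highest in eGFP++ cells. The summed neuronal subunits stood at 47.2 and 85.2 CPM in eGFP++ cells, against 90.003 and 42.03 CPM for the summed progenitor subunits. The pilot eGFP++ share leaned on Dpf1, at 57.7 CPM with most of its reads in a single cell. In that sum Phf10 and Ss18 were at only 1.53 and 0.672 CPM. The main eGFP++ share of 34.4% holds a Dpf1 level that was uneven between plates, as given above. On Day 2 the neuronal sums were 8.83 and 27.9 CPM and the progenitor sums 278.7 and 383.9 CPM. Since CEL-seq counts the 3′ end of transcripts, the levels were not divided by transcript length. A share between genes also depends on how well each gene's end is captured, so only the same share is compared across groups.

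**Figure D3:**
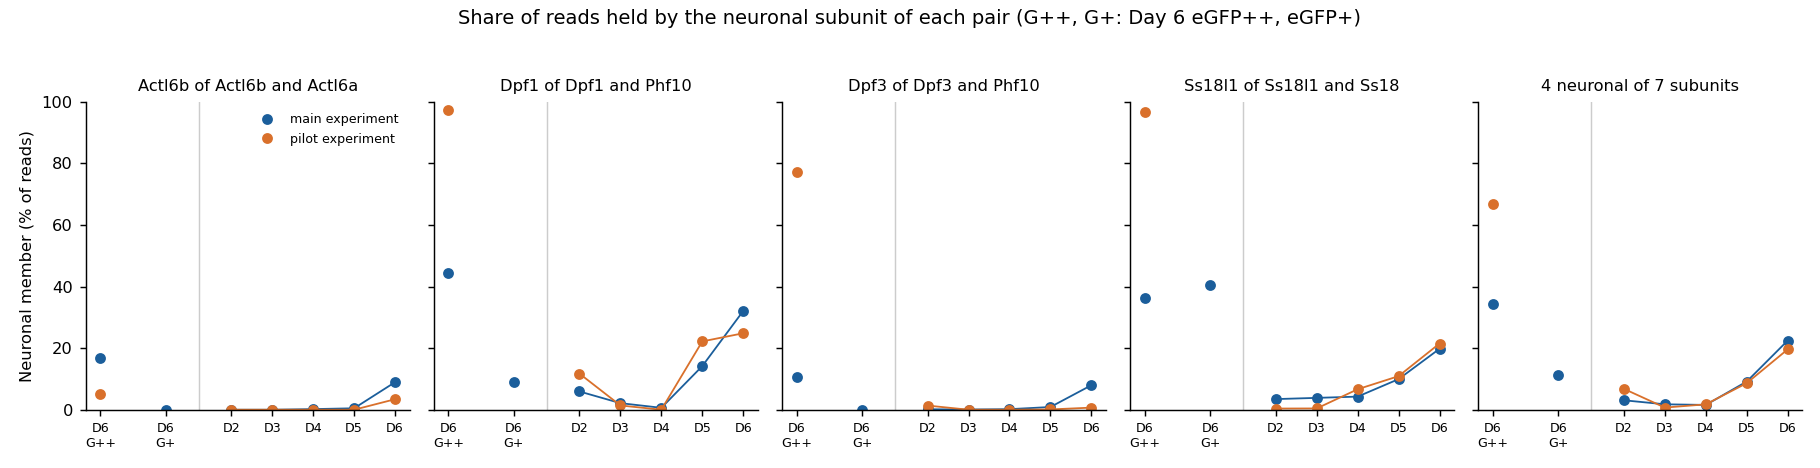
Share of the neuronal subunit in the CPM of each neuronal and progenitor pair and of all 7 subunits, in percent, by group and experiment. The share of all 4 neuronal subunits is 34.4 and 66.96% in eGFP++ cells, against 22.5 and 19.6% in Day 6 and 3.07 and 6.78% in Day 2 cells.

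The single pairs had different shares. Actl6b made up 16.9 and 5.23% of the Actl6b and Actl6a level in eGFP++ cells, and 8.95 and 3.41% on Day 6. Dpf1 made up 44.3 and 97.4% of the Dpf1 and Phf10 level in eGFP++ cells, 8.91% in eGFP+ cells, 32.1 and 24.8% on Day 6, and 5.93 and 11.7% on Day 2. Ss18l1 made up 36.3 and 96.8% of the Ss18l1 and Ss18 level in eGFP++ cells and 40.5% in eGFP+ cells, there from 1 cell for nearly all Ss18l1 reads.
On Day 6 the Ss18l1 share was 19.8 and 21.5%, and on Day 2 it was 3.45 and 0.381%. Dpf3 was 10.7 and 77.1% of the Dpf3 and Phf10 level in eGFP++ cells, against 7.96 and 0.685% on Day 6. The pilot eGFP++ shares above 70% rest on the 25 reads of Phf10 and 11 reads of Ss18 in that sum, and on a single cell for Dpf3. The main Dpf1 share of 44.3% in eGFP++ cells rests on the uneven plates given above.

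Within single cells of the main experiment the 2 sets were found together as well as apart. After thinning, a neuronal subunit was found in 18.8% of eGFP++ cells and 11.6% of Day 6 cells, against 4.22% of Day 2 cells, and a progenitor subunit in 31.6, 34.5 and 78.9%. In eGFP++ cells, 32 cells held a neuronal subunit without a progenitor one and 21 held both. On Day 6 these were 29 and 12 cells, and on Day 2 they were 1 and 14 cells. Among cells with a neuronal subunit, a progenitor subunit was thus found in 39.6% of eGFP++ cells and 29.3% of Day 6 cells, against 93.3% of Day 2 cells. Among cells without a neuronal subunit it was found in 29.7, 35.1 and 78.2% of these groups. The pilot Day 6 cells differed from the main ones, with 6 cells that held both and 1 with a neuronal subunit alone (85.7%). Of the pilot Day 6 cells without a neuronal subunit, 42.2% held a progenitor one.
The pilot eGFP++ group had 1 cell with both, 3 with a neuronal one alone, 6 with a progenitor one alone and 29 with neither. With all reads in main eGFP++ cells, Actl6a was found in 26.3% of the 38 cells with Actl6b and in 30.6% of the cells without it. On Day 6 Actl6a was found in 55% of the 20 cells with Actl6b and in 36.8% of the others. The cells of a group share a culture, so these counts carry no test, and a subunit without a read may still be expressed.

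The Day 6 cells of each plate were also split at the plate's median of thinned reads from the 14 neuron markers. The main cells above this line had a median of 77.5 marker reads, against 3 in those below it, and the pilot cells 58 against 2. Actl6b was found in 5 main cells above the line (2.81%) and in 0 below it, and in 2.78 against 0% of pilot cells. With all reads the main shares were 10.7 against 0.568%.
On Day 6 all 4 neuronal subunits were more frequent above the line in both experiments, although for Actl6b and Dpf3 the pilot had 1 cell above against 0 below. Dpf1 was in 8.43% of the main cells above, against 2.27% below, and in 8.33 against 0% of pilot cells. Ss18l1 was in 5.06 against 2.27% and in 8.33 against 2.86%. Dpf3 was in 1.69 against 0.568% and in 2.78 against 0%.
The 3 progenitor subunits were less frequent above the line on Day 6, in both experiments. Phf10 was in 9.55 against 15.9% of main and 16.7 against 34.3% of pilot cells, and Ss18 in 8.99 against 13.1% and 8.33 against 14.3%. Actl6a was in 19.1 against 22.2% and in 22.2 against 28.6%. Markers of dividing cells moved with this split. Their medians were 2 thinned reads above against 9.5 below in main cells and 5.5 against 17 in pilot cells. Detected genes per thinned cell had medians of 1580 above against 1390 below in main and 1729 against 1645 in pilot cells. The part of either was not tested. No test was made between cells of 1 culture.
The same split of other groups gave part of this order. In eGFP++ cells the neuronal subunits were again more frequent above the line, with Actl6b in 7.09 against 3.55% of main and 5 against 0% of pilot cells. For Actl6b, Dpf3 and Ss18l1 the pilot eGFP++ group had 1 cell above against 0 below. Detected genes per thinned eGFP++ cell had medians of 1700 above against 1572 below in the main experiment and 1024 against 901 in the pilot. The progenitor subunits were not all less frequent there, since Phf10 was in 12.1 against 8.51% and in 10 against 0%, and Actl6a in 17.7% on both sides of the main cells and in 15 against 5.26% of pilot cells. On Day 5 Actl6b had no thinned read on either side, and Dpf1 was in 6.10 against 6.79% of main and 5.26 against 2.70% of pilot cells. Ss18 was in 25.6 against 23.5% and in 21.1 against 18.9% on Day 5, so it was more frequent above the line there.

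**Figure D4:**
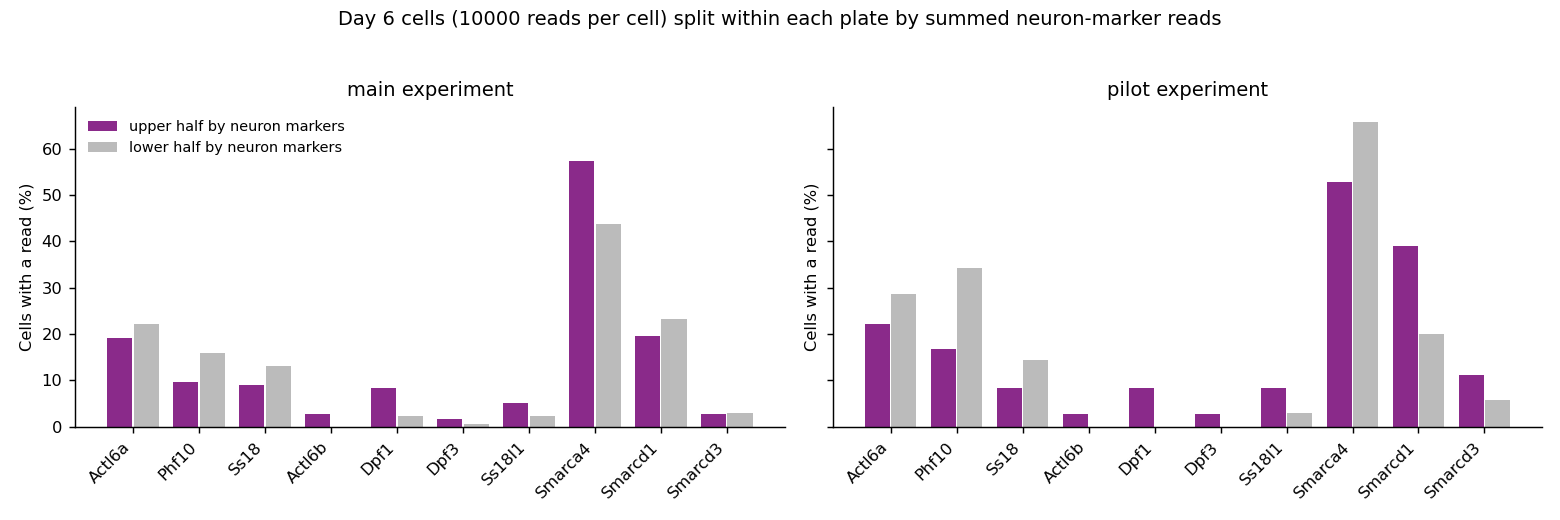
Share of thinned Day 6 cells with a read of each BAF gene, in percent from 0 and without intervals, in cells above (purple bars) and below (grey bars) their plate's median of neuron marker reads, with 1 panel per experiment. Actl6b, Dpf1, Dpf3 and Ss18l1 are more frequent above and Actl6a, Phf10 and Ss18 below that median.

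Smarca4, the ATPase BRG1 of the complex, had the most reads of the 10 genes in every sum but the pilot sum of Day 2. It was at 494.1 and 207.6 CPM in eGFP++ cells and 139.2 CPM in eGFP+ cells. Main sums of Days 2 to 6 were at 193.5, 305.97, 203.4, 222.9 and 405.95 CPM. Those of the pilot days were at 64.3, 387.6, 259.9, 232.8 and 312.7 CPM.
The sums of Days 3 and 6 lay above those of Days 4 and 5, and these above both sums of Day 2. The main Day 3 sum leaned on a single plate at 818.1 CPM, with the other plates at 181.75 to 281.5 CPM. That plate is 1 of the 3 picked for many failed wells or few detected genes. The eGFP++ difference from Day 2 in reads was 1.42 ± 0.50 (edgeR adjusted p = 0.139). The share of cells was 52.5 and 35.9% in eGFP++ cells, against 53.2 and 22.97% in Day 2 cells (log2 ratio 0.20, adjusted p = 0.73). Its eGFP+ share of 20.5% was lower than that of any other group in the main experiment. The eGFP+ cells also had the lowest median of detected genes there, at 1524 per kept cell. The part of this in the low share was not tested.

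Smarcd1, which encodes the BAF60a subunit that contacts transcription factors, had higher levels late. It was at 49.3 and 134.999 CPM in eGFP++ cells and 28.8 CPM in eGFP+ cells. A single cell gave 68.3% of the reads of that pilot eGFP++ sum. In main sums, Days 2, 3, 4, 5 and 6 stood at 25.996, 21.4, 20.2, 38.2 and 56.7 CPM. Pilot sums stood at 19.4, 12.7, 29.2, 40.02 and 54.01 CPM.
The Day 5, Day 6 and eGFP++ sums of both experiments were all above the sums of Days 2 to 4. The slope of 0.33 ± 0.12 per day had an edgeR adjusted p of 0.144 in reads, and 0.35 ± 0.13 with an adjusted p of 0.0911 in shares of cells. Of the 10 genes, 5 had enough cells for the slope on shares (3 progenitor subunits, Smarca4 and Smarcd1), and 0 of them were called, where 12.8% of 8019 genes were.

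Smarcd3, the BAF60c subunit of heart and of neural progenitors, was low or absent on Day 2 and higher from Day 3 (main) or Day 4 (pilot). It was at 9.56 and 0 CPM in eGFP++ cells and 8.37 CPM in eGFP+ cells. Its main levels of Days 2 to 6 were 0.377, 5.07, 5.11, 7.21 and 5.61 CPM. Its pilot levels were 0, 0.0139, 7.38, 5.71 and 14.3 CPM.
The 2 eGFP++ sums thus lay at opposite ends of their experiments, the main one highest and the pilot one at 0. With all reads 32 main eGFP++ cells held Smarcd3 (11.3%), as did 0 of 39 pilot eGFP++ cells, which allows up to 7.69% by the limit of 3 cells. The slope of 1.34 ± 0.70 per day had an edgeR adjusted p of 0.328.

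None of the 10 genes was called in reads or in shares in any other comparison. For Day 6 against Day 2, 0.833% of all genes were called in reads and 13.6% in shares, and 3 of the 10 BAF genes had an unadjusted p under 0.05 in reads, as did 13.7% of all genes. The Day 6 difference was −1.28 ± 0.47 for Actl6a (edgeR adjusted p = 0.278) and 1.49 ± 0.50 for Smarca4 (adjusted p = 0.235), and Actl6b was the third (adjusted p = 0.292). DESeq2 called 3 of the 10, and 14.3% of all genes. For eGFP++ against Day 6, 0.0311% of genes were called in reads and 0.0485% in shares, and Phf10 had the lowest fitted value of the progenitor subunits, at −2.42 ± 1.07 (adjusted p = 0.743). Between Day 3 and Day 2 the background was 0.0498% in reads and 0.388% in shares, between Day 5 and Day 4 it was 0% and 0.254%, and in the other steps it was 0%. These comparisons share the sums of Day 2 and Day 6 and are not independent of each other.
With plates of 1 experiment taken as samples, which measures the spread between plates of a culture and not between cultures, the main experiment called 8 of the 10 for eGFP++ against Day 2, and 31.4% of all genes. Actl6a, Phf10 and Ss18 were at −1.66, −2.17 and −1.34 there, and Ss18l1, Smarca4, Dpf3 and Smarcd3 at 2.62, 1.22, 4.32 and 4.33, with edgeR adjusted p from 0.000201 to 0.0407. The eighth was Actl6b (adjusted p = 0.00286). In the pilot experiment, where eGFP++ is 1 plate that is assumed to vary like those of the other groups, Phf10 alone was called, at −6.92 ± 1.67 (edgeR adjusted p = 0.00689), beside 4.33% of all genes.

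**Figure D5:**
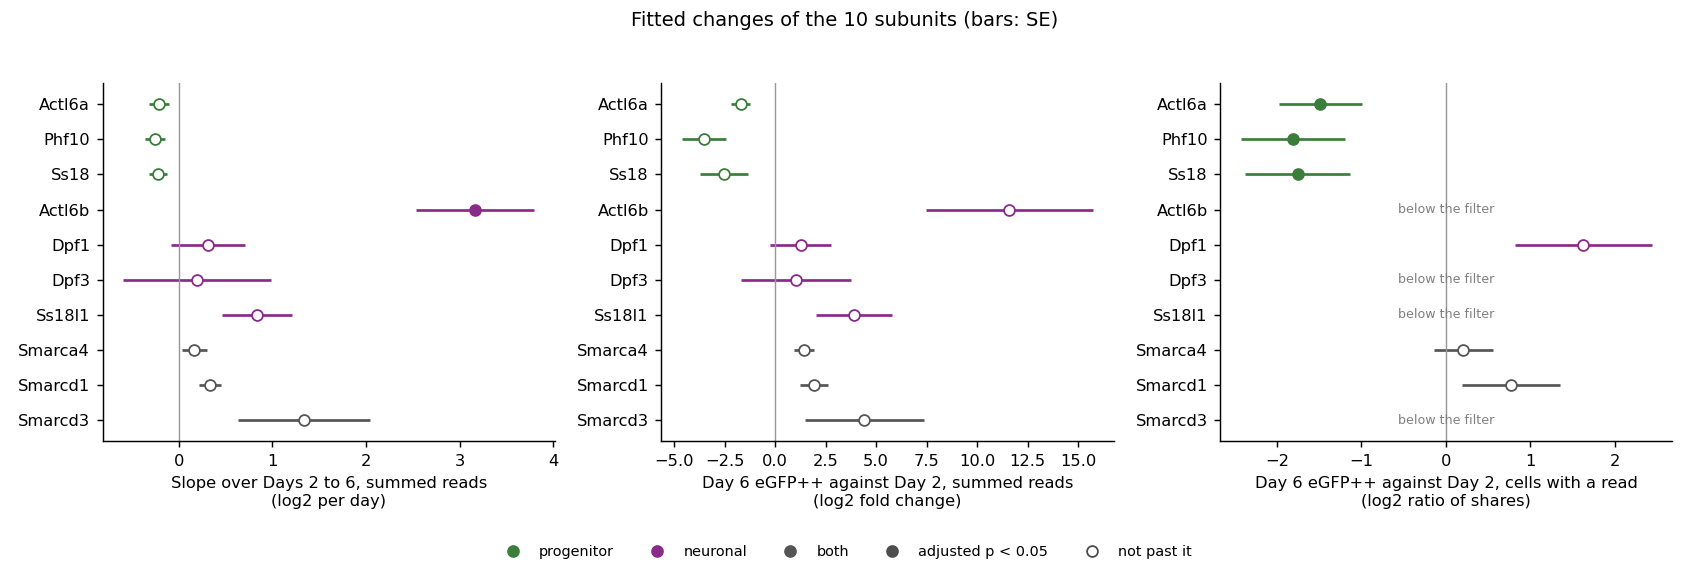
Fitted log2 slope per day over Days 2 to 6 in reads (left), and fitted log2 difference of eGFP++ from Day 2 cells in reads (middle) and in shares of cells (right) for the BAF genes, with bars of 1 SE and filled points where the adjusted p is under 0.05. The shares of Actl6a, Phf10 and Ss18 at −1.49, −1.81 and −1.76 and the slope of Actl6b at 3.17 are filled.

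The rest of the complex was followed in a list of 22 other BAF subunits, of which 20 are in the tables. In reads 1 rose and 0 fell over Days 2 to 6, where 4.18% of all genes were called (median slope 0.012, against 0.016 over all genes). For eGFP++ against Day 2, where 4.61% were called, 2 rose and 0 fell, at a median of 0.35, against −0.29 over all genes. Smarcc2, the scaffold subunit BAF170, rose by 0.78 ± 0.17 per day (edgeR adjusted p = 0.0276) and by 4.01 ± 0.87 in eGFP++ against Day 2 cells (adjusted p = 0.0273). It was at 36.95 and 135.1 CPM in eGFP++ cells, 35.6 CPM in eGFP+ cells and 31.3 and 36.9 CPM on Day 6, against 3.996 and 5.29 CPM on Day 2.
Smarce1, the HMG-box subunit BAF57, rose by 2.13 ± 0.47 in eGFP++ cells (adjusted p = 0.0292), to 178.98 and 203.2 CPM, against 55.8 and 31.3 CPM in Day 2 cells. Its slope had an adjusted p of 0.0757. Bcl7a had 51.4 and 65.4 CPM in eGFP++ cells and 77.9 and 54.1 CPM on Day 6, against 6.15 and 15.4 CPM on Day 2 (slope 0.60, edgeR adjusted p = 0.231). Smarcc1, the BAF155 partner of Smarcc2, had 71.3 and 857 CPM in eGFP++ cells, against 154.1 and 699 CPM in Day 2 cells. Its experiments thus lay apart more than its groups. In shares of cells 3 of 14 tested BAF subunits outside the 10 rose over the days (12.8% of all genes were called), Bcl7a, Smarcc2 and Smarce1, and 3 of 16 rose in eGFP++ against Day 2 cells (23.8% of all genes were called). The last were Bcl7a, Smarcc2 and Smarca2, the ATPase BRM that can stand in for Smarca4, with a log2 ratio of 3.06 ± 0.91 (edgeR adjusted p = 0.0167).

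Of 20 other ATP-dependent remodellers 19 are in the tables. In reads 1 rose and 0 fell over the days, where 4.18% of all genes were called, and 1 rose and 2 fell in eGFP++ against Day 2 cells, where 4.61% were. Chd3, an ATPase of the NuRD complex, rose by 1.09 ± 0.28 per day (edgeR adjusted p = 0.0495) and by 5.69 ± 1.31 in eGFP++ against Day 2 cells (adjusted p = 0.0336). It was at 266.6 and 133.5 CPM in eGFP++ cells, against 12.2 and 0.419 CPM in Day 2 cells. Hells, a remodeller linked to DNA methylation in dividing cells, fell by 3.79 ± 0.63 (adjusted p = 0.00862), to 6.31 and 17.2 CPM in eGFP++ cells, against 155.9 and 102.4 CPM in Day 2 cells. Chd1l fell as well (adjusted p = 0.0298), to 0.661 and 0 CPM, against 34.5 and 33.3 CPM. In shares of cells 17 could be tested. Chd3 rose and Chd1l, Hells, Chd9 and Ino80 fell in eGFP++ against Day 2 cells, where 23.8% of all genes were called, and Chd3 and Chd7 rose over the days, where 12.8% were (edgeR adjusted p from 0.000978 to 0.0388). In reads, Ino80 and Chd1 were next by slope and did not pass (edgeR adjusted p = 0.0606 and 0.107).

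The genes most like each subunit across the 12 sums of Days 2 to 6 and eGFP++ cells were ranked by Pearson's r of log2(CPM + 1), centred within each experiment, among 9044 genes. The sums share libraries and depth, and r is given as a description. Actl6b was most like Scg2 (0.9603), Nell2 (0.955) and Rab3c (0.95), and Dpf3 was most like Snap25 (0.979), Plxna1 (0.953) and Slc25a27 (0.947). Ss18l1 was most like Hist3h2a (0.974), Ntmt1 (0.971) and Add2 (0.967), and Dpf1 was most like Bbc3 (0.933), Rngtt (0.927) and Rnf111 (0.926).
Among the progenitor subunits Actl6a was most like Trim28 (0.954), Ahcy (0.953) and Mreg (0.945). Phf10 was most like Mllt10 (0.982), Pacsin3 (0.978) and Samhd1 (0.971), and Ss18 most like Sdad1 (0.993), Pacsin3 (0.991) and Polr2e (0.987). Without the pilot eGFP++ sum these r were 0.818 to 0.923 for Phf10 and 0.848 to 0.953 for Ss18. Phf10 and Ss18 had an r of 0.958 with each other, and 0.721 without that sum.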

How the data were processed

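Single cells of 7 groups were sequenced in 35 plate tables that were used (24 main, 11 pilot). The deposited tables hold the authors' whole-number counts of reads per gene and cell, without molecular identifiers. TopHat2 2.1.1, HTSeq 0.6.1 and the build mm10 are named in the submitters' processing notes; no source used here gives the strand setting. Table columns carry no cell names, so each was assigned to the group and experiment of its plate. A further table's 40 columns matched no sample and were not used. Lines that name no gene took 34.9% of reads and stayed out of totals, as did 92 spike-ins and 27 gene names turned into dates.

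Cells with at least 500 genes were kept (2448 of 2744, with 283 eGFP++ and 361, 422, 227, 332 and 354 cells of Days 2 to 6 in the main experiment); 2433 of them could be thinned to 10000 reads. No doublet caller was run on these cells, which were sorted 1 per well, and no pair of kept cells held identical counts. Reads were summed per group and experiment, and 12 sums (eGFP+ left out) went into edgeR 4.0.16 under R 4.3.3 (filterByExpr, TMM, quasi-likelihood model of group plus experiment, 5 residual degrees of freedom, prior count 0.125). The slope used 10 sums with the day as a number. For shares, the number of thinned cells with a read was fitted in the same way with the number of thinned cells as library size. Adjusted p-values are Benjamini-Hochberg values over the whole table of tested genes, from two-sided tests, with a threshold of 0.05. SE is the log2 change over the square root of F. The experiment is the replicate that the series names; it paired the sums and was a term in the main fits. Alternatives included DESeq2 1.42.0, other scalings, thinning depths, filters and leaving out each sum. The fits were tested on simulated data for Day 6 against Day 2. In reads they called 0 of 50 genes changed 2-fold, 1 of 50 changed 4-fold and 24 of 50 changed 16-fold. In shares they called 2 of 50 genes changed 2-fold, 8 of 50 changed 4-fold and 26 of 50 changed 8-fold. Of 50 genes changed 64-fold in reads, 28 were called. A change of any of these sizes that did not pass may thus have been missed, most often one of 2- to 4-fold. Shares and sequences were computed with pandas 2.3.3, numpy 2.4.6 and scipy 1.17.1 in Python 3.11.15, and figures drawn with matplotlib 3.10.9. Sequences are from RefSeq GRCm38.p6 and GENCODE M21.

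The 10 genes, the lists and the markers were chosen with earlier results of these data known. Of the 2 further lists, genes called in a comparison of reads and the 4 with the smallest p in the slope were named. For likeness, the 3 genes with the largest r among named genes with at least 20 CPM in 1 sum were given.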

Additional observations from a re-analysis of the deposited data

Results flagged for a closer look

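The share of cells with a read, all reads used, was compared between plates in 38 combinations of gene and group, all in the main experiment. Each had at least 4 plates and a read on at least 1 plate. In 10 of them 1 plate stood far from the others by Dixon's criterion, which chance meets in about 1 of 20 groups. On Day 3 a single plate gave 5 of these. It had Actl6a in 30.77% of cells (74.07 to 83.72% on the other 4 plates), Phf10 in 2.564% (55.81 to 70.37%) and Ss18 in 6.41% (58.43 to 64.77%). On the same plate Smarca4 was in 41.03% (83.15 to 90.12%) and Dpf1 in 1.282% (6.818 to 7.865%). It is 1 of the 3 plates picked for many failed wells or few detected genes. On Day 5 another plate had Actl6b in 10% of cells (0 to 1.19% on the others) and Dpf3 in 3.75% (1.136 to 1.25%). On Day 6, 1 plate had Actl6b in 1.136% (6.742 to 7.778%) and another had Dpf3 in 1.124% (3.333 to 3.448%). On Day 2, 1 plate had Dpf3 in 0.0% (1.087 to 1.111%), which is 0 cells against 1 cell per plate.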

How the results depend on the processing

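Reads of the whole series are sparse: 4 of the 10 BAF genes had too few cells for the fit on shares, and 2 sums per group leave 5 residual degrees of freedom.

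In the slope on reads, where 1 of the 10 genes was called (Actl6b), 4 were called with DESeq2, with scaling to spike-in reads and with main plates as samples, and 0 with pilot plates. Scaling to spike-in reads moved the median of all genes by −0.53 per day in the slope, by −2.19 for Day 6 and by −1.68 for eGFP++ against Day 2. It turned the slopes of Dpf1 (−0.18), Dpf3 (−0.29), Smarca4 (−0.42) and Smarcd1 (−0.20) downward, all of which lie above that shift. The Dpf3 slope was also below 0 with pilot plates (−0.58) and without the main sums of Day 2 (−0.0888), Day 3 (−0.0267) or Day 6 (−0.189), and ran to 1.55 when other sums were left out. Leaving out 1 sum gave 0 to 1 calls in the slope. Over all genes, 17.6% were called in that slope with DESeq2, 30.1% with spike-in scaling (4616 of 4840 lower) and 24.8% with main plates, against 4.18%.

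For Day 6 against Day 2 in reads, where 0 were called, 3 were called with DESeq2, 1 with spike-in scaling and 6 with main plates. For eGFP++ against Day 2 in reads, with 0 called, these settings gave 6, 3 and 8, and pilot plates gave 1. Leaving out 1 sum gave 0 to 3 calls there and 0 to 2 for eGFP++ against Day 6. The adjacent days in reads, with 0 called, had 1 call with DESeq2 and 1 with main plates.

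On shares of cells, the slope had 0 calls, but 3 with main plates, 2 with pilot plates, 1 when thinned to 5000 reads, 1 when at least 2 reads were asked for and 2 with TMM scaling. Day 6 against Day 2 had 0, but 3, 2, 2, 2 and 4 under these settings, and 0 to 3 with 1 group left out. For eGFP++ against Day 2 there were 3 calls, but 0 without thinning and 5 with TMM scaling. There were also 0 without the 3 plates picked for many failed wells or few detected genes, an alternative chosen after seeing the data. The calls were likewise lost with pilot plates, where eGFP++ is 1 plate, and without some single groups, as given above. Smarca4 turned below 0 there with main plates (−0.02) and without the pilot Day 2 group (−0.089), and reached 0.781 without the main Day 2 group. TMM scaling called 45.9% of all genes there (1863 higher, 1925 lower, against 719 and 1245) and moved their median by 0.32, and main plates called 47.4%. Adjacent days had 0, but 2 with main plates, 2 with pilot plates and 1 with TMM scaling. Without the replicate block for the experiment, the pairing was dropped and 0 of the 3 shares were called, the slope of Actl6b was 2.98 (edgeR adjusted p = 0.0409), and all genes called for eGFP++ against Day 2 on shares numbered 1077, of which 621 were lower, against 1964, of which 1245 were lower. The cause of these changes was not tested.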
